A study of Mus musculus with 15 samples.

Results

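The smooth muscle and the heart libraries are 2 of 15 mouse small RNA libraries, chosen by their tissue labels, and they set smooth muscle beside cardiac muscle. The RNA came from a commercial panel of total RNA from mouse tissues and embryos, with 1 library per tissue. The labels give the tissue alone for both libraries: strain, age, sex, treatment, the organ from which the smooth muscle was taken and any pooling of animals were not stated in the labels. Libraries were made by AQ-seq, a small RNA protocol with randomized adapters that is meant to lower the bias of ligation, and sequenced on a MiSeq. Reads were counted per mature miRNA name, and the share of a name is its reads as a percent of all miRNA reads of the library.

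MicroRNAs are short RNAs cut from hairpin precursors, and they guide Argonaute proteins to target messages mainly through the seed, bases 2 to 8. Each hairpin has a 5p and a 3p arm, and either strand can be kept as the mature miRNA. In muscle, miR-1 and miR-133 are made from shared precursors in cardiac and skeletal fibres, miR-208a, miR-208b and miR-499 lie in introns of myosin heavy chain genes, and miR-143 and miR-145 come from a common transcript known from smooth muscle and fibroblasts. The library of each tissue also holds RNA of its other cells, such as epithelium, endothelium and blood. In bulk RNA, fewer cells of a type and less RNA per cell cannot be told apart.

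The smooth muscle library held 1728045 reads of 878 names, and the heart library 2622423 reads of 796 names. Totals of the 15 libraries ranged from 148052 to 3161463. Of 996 names with a read in either library, 678 had reads in both, 200 in smooth muscle only and 118 in heart only. The names seen only in smooth muscle had at most 408 reads, and those seen only in heart at most 21. A count of 3 reads, used as the floor for a name with no read, stood for 1.74 CPM (reads scaled to a library total of 1000000) in smooth muscle and 1.14 CPM in heart. Each tissue has 1 library, so no difference here has a replicate check and no test was made. Intervals in brackets are exact 95% intervals, Clopper-Pearson for shares and conditional binomial for ratios, and they cover counting error only, since PCR copies of a molecule are counted as separate reads.

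The mature sequences below belong to names that differed strongly between the libraries and show which of them share a seed. They are printed from the RefSeq table of GRCm38.p6, with the seed in capitals. The first group, epithelial names higher in smooth muscle, holds 4 seeds.
miR-194-5p: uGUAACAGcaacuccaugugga
miR-192-5p: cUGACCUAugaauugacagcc
miR-215-5p: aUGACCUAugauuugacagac
miR-200b-3p: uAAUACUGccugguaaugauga
miR-200c-3p: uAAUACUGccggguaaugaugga
miR-429-3p: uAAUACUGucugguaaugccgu
miR-200a-3p: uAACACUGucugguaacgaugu
miR-141-3p: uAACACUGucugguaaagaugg
The second group was higher in heart. The miR-208 copies share a seed, and the seed of miR-499-5p ends in another base.
miR-208a-3p: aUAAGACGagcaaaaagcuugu
miR-208b-3p: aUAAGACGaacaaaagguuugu
miR-499-5p: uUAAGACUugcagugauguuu
miR-133b-3p: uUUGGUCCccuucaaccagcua
miR-126a-3p: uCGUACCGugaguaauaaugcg
miR-451a: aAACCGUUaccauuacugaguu

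The marker miRNAs separated the labels in the direction of their names. miR-143-3p took 10.5% (10.5 to 10.6) of smooth muscle reads and 3.76% (3.73 to 3.78) of heart reads, a ratio of 2.80 (2.78 to 2.83). miR-145a-5p took 4.90% (4.86 to 4.93) and 1.197% (1.18 to 1.21), a ratio of 4.09 (4.04 to 4.14). For both names the smooth muscle library ranked second of the 15 libraries, behind stomach, and heart ranked 5th for miR-143-3p and 4th for miR-145a-5p. miR-1a-3p took 17.4% (17.4 to 17.5) of heart reads and 0.109% (0.104 to 0.114) of smooth muscle reads, 160-fold (153 to 167) higher in heart. miR-133a-3p took 11.2% (11.2 to 11.3) of heart reads and 0.117% (0.112 to 0.122) of smooth muscle reads, 96.0-fold (91.9 to 100.3) higher in heart. Heart ranked first of the 15 libraries for both, and smooth muscle ranked 11th and 9th.

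Ratios taken inside a library do not depend on its total. For 100 reads of miR-143-3p there were 464 reads of miR-1a-3p in heart and 1.03 in smooth muscle, against 0.772 in stomach, 1.74 in kidney and 38.8 in liver. Among these libraries alone, smooth muscle lay between stomach and kidney for miR-1a-3p and far from heart. For the same 100 reads there were 140 reads of miR-194-5p in smooth muscle, 0.896 in heart, 4.94 in stomach, 58.4 in kidney and 213 in liver.

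The smooth muscle library was nonetheless led by miRNAs known from epithelium. miR-194-5p was its most abundant name, with 255269 reads or 14.8% (14.7 to 14.8), against 883 reads or 0.0337% (0.0315 to 0.0360) in heart. miR-215-5p followed miR-143-3p with 9.64% (9.60 to 9.69), against 99 heart reads, and miR-192-5p held 3.53% (3.50 to 3.56), against 454 heart reads. These 3 miRNAs, known from gut, kidney and liver epithelium, together with their other strands took 28.8% (28.7 to 28.9) of smooth muscle reads and 0.0554% (0.0526 to 0.0584) of heart reads. The next highest of the 15 libraries was liver, with 4.27%. The smooth muscle list, with miR-143 and miR-145a, summed to 15.7% in this library, 26.8% in stomach and 5.05% in heart. The smooth muscle library thus held a larger share of these epithelial names than of the smooth muscle names. Whether epithelium was part of the dissected tissue was not tested.

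**Figure D1:**
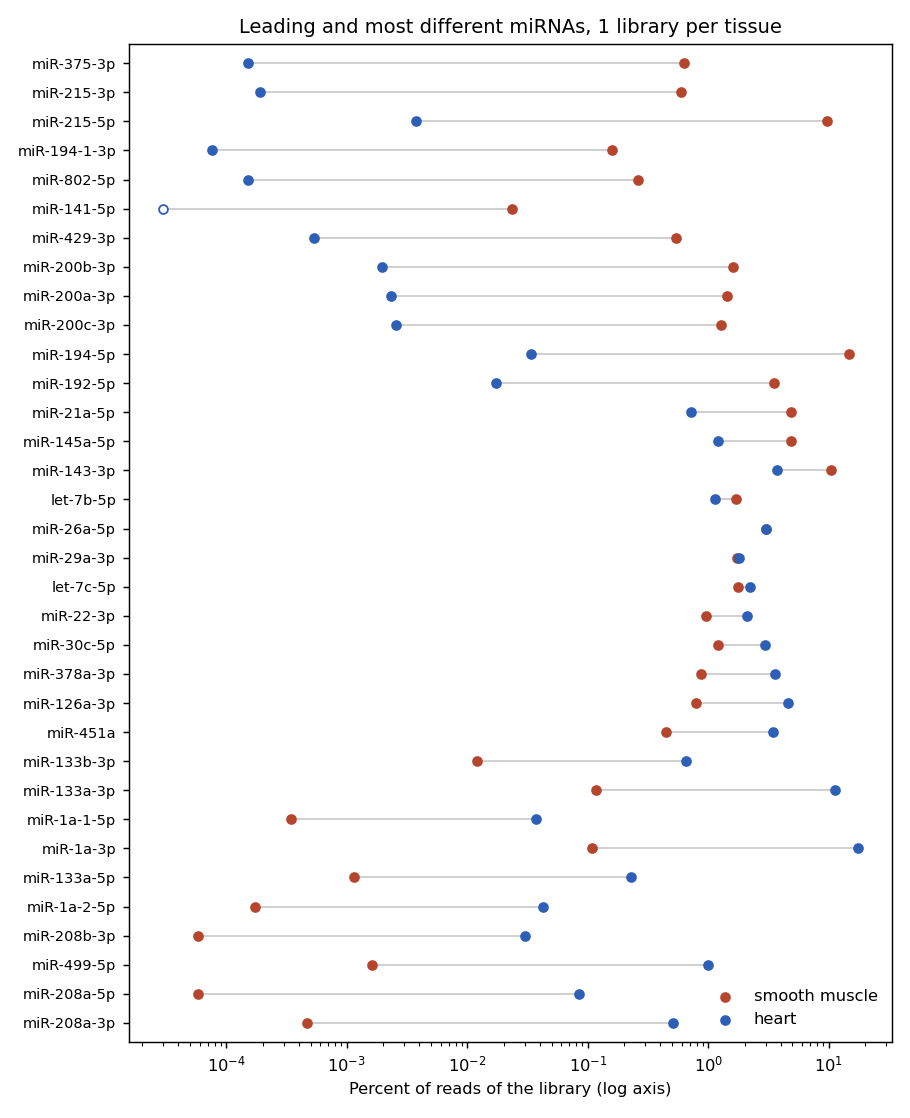
Share of reads of the leading and the most different miRNAs in the smooth muscle library (red) and the heart library (blue), on a log axis in percent of the library's reads, ordered by their ratio; lines join the values of a name, and the open point marks miR-141-5p, with no heart read, drawn at an arbitrary low value. Names at the top are epithelial, names at the bottom belong to heart muscle, and miR-26a-5p and miR-29a-3p lie nearly together.

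Names that take 28.8% of a library lower every other share in it, so all comparisons were made with all names in the totals and again with miR-192, miR-194 and miR-215 left out, below called the smaller totals. Leaving them out raised the log2 ratio of smooth muscle over heart by 0.49 for each remaining name. A name was called when its shares differed at least 4-fold, with 0.5 reads added to each count, among names with a mean of at least 20 CPM over both libraries. With all names, 326 were compared. Of these, 64 were called higher in smooth muscle, which is 19.6% of those compared, and 40 were called higher in heart, which is 12.3%. The counting interval lay wholly past 4-fold for 59 and 33 of them, and 148 names lay within 2-fold. Without miR-192, miR-194 and miR-215, 346 names were compared, with 83 called higher in smooth muscle (24%) and 31 in heart (8.96%). Both sets of totals called the same 57 names in smooth muscle and the same 31 in heart.

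The balance between the directions depended on the totals. With all names, 61.5% of calls were higher in smooth muscle and the median log2 ratio over all names compared was 0.39. With the epithelial trio left out, 72.8% of calls were higher in smooth muscle, and with the miR-200 family left out as well 74.6% of 114 calls were. TMM factors gave 55.4% and a median of -0.01, and median-of-ratios scaling gave 53.4% and -0.22. On the smaller totals these scalings gave 53.5% and 51.0%. Leaving out both epithelial lists and both heart muscle lists, a choice made after seeing the data, gave a median of 0.41. Of 326 names 229 kept their sign under all of the 6 scalings that held them. Under every scaling that held them, 55 names were at least 4-fold higher in smooth muscle and 29 in heart.

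**Figure D2:**
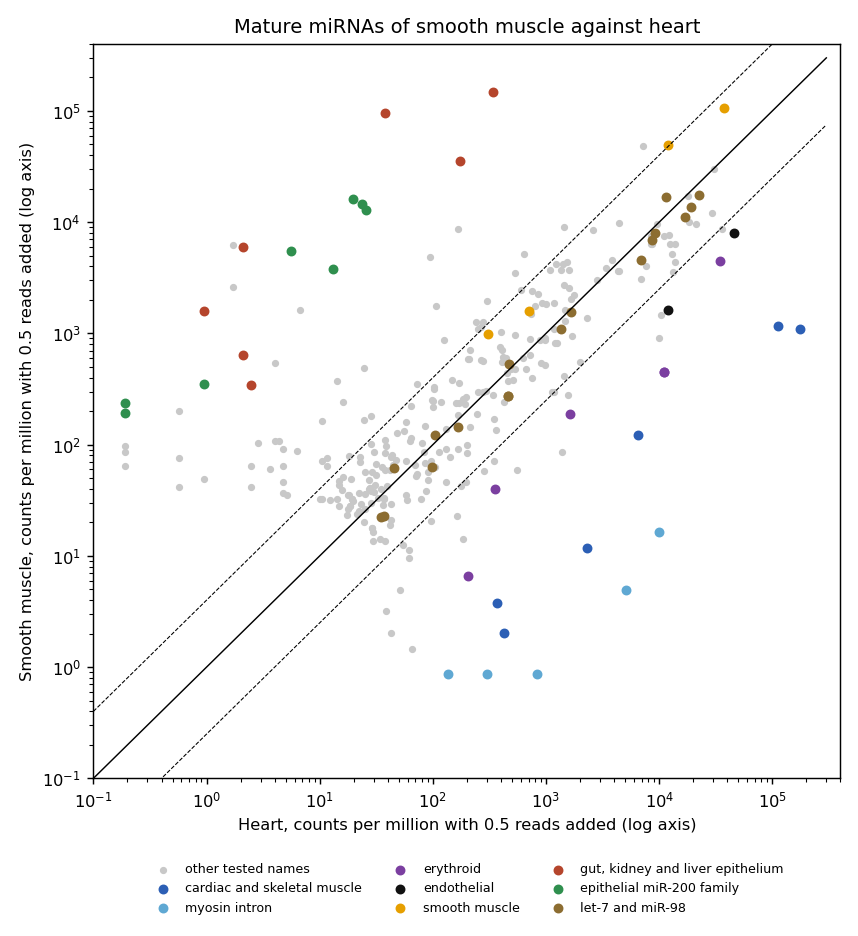
Each point is a mature miRNA with a mean of at least 20 CPM, with its CPM in heart on the horizontal and in smooth muscle on the vertical axis, both log axes with 0.5 reads added; the solid line is equality, the dashed lines are 4-fold, and colours mark lists of miRNAs. Heart muscle names lie far below the lower dashed line, the epithelial names far above the upper one, and let-7 names between them.

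All 6 cardiac and skeletal muscle names compared were called higher in heart, with log2 ratios from -7.72 to -5.75, against 12.3% of all names. The list summed to 29.6% (29.5 to 29.6) of heart reads and 0.240% (0.232 to 0.247) of smooth muscle reads, and to at most 3.75% in any other library, in eye. miR-133b-3p, close in sequence to miR-133a-3p and made from another gene, on chromosome 1, had 17101 reads in heart and 209 in smooth muscle, 53.9-fold (47.0 to 62.1) higher in heart. The passenger strand miR-133a-5p had 6025 and 20 reads, 199-fold (128 to 325) higher in heart. miR-1a has a pair of gene copies, told apart by their 5p strands. In heart miR-1a-1-5p had 966 reads and miR-1a-2-5p 1119, so that the first copy gave 46.3% (44.2 to 48.5) of both. Smooth muscle had 6 and 3 reads, too few to place its own balance.

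The myosin intron miRNAs showed the largest ratios on the heart side. miR-208a-3p, from an intron of the alpha myosin heavy chain gene Myh6 on chromosome 14 (54949060 to 54949142 in GRCm38.p6, minus strand), had 13427 heart reads, or 0.512%, and 8 smooth muscle reads, 1106-fold (561 to 2562) higher in heart. miR-208b-3p, from an intron of the beta myosin gene Myh7 on the same strand (54975700 to 54975776), had 794 heart reads and 1 smooth muscle read, a ratio of 523 with a counting interval of 93.6 to 20691. The hairpins lie 26557 bases apart. miR-499-5p, from an intron of Myh7b on chromosome 2 (155622880 to 155622958, plus strand), had 26340 heart reads and 28 smooth muscle reads, 620-fold (429 to 933) higher in heart. All 5 names compared in this list were called higher in heart, against 12.3% of all names. The list took 1.64% of heart reads, 0.00226% of smooth muscle reads and at most 0.138% elsewhere, in the day 15 embryo. Smooth muscle ranked 14th of 15 for the list.

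The 2 miR-208 copies differ at the bases in capitals.
miR-208a-3p: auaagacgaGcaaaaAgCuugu
miR-208b-3p: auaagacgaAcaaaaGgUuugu
They were counted under separate names, and miR-208a-3p made up 94.4% (94.0 to 94.8) of the reads of both in heart. The 9 reads in smooth muscle do not give a balance to compare with it. miR-208a is known as the adult cardiac copy in mouse, and miR-208b as the one that goes with the fetal and slow myosin.

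On the smooth muscle side the muscle markers differed by far less than the epithelial names. Of 4 smooth muscle names compared 1 was called with all names, miR-145a-5p, a share near the 19.6% of all names. On the smaller totals miR-143-5p was called as well, with a ratio of 4.57, against 24% of all names. The call of miR-145a-5p was lost under TMM, with a log2 ratio of 1.64, and under median-of-ratios scaling, with 1.43. miR-143-5p had 1713 smooth muscle and 799 heart reads, a ratio of 3.25 (2.99 to 3.54), and miR-145a-3p had 2733 and 1846 reads, a ratio of 2.25 (2.12 to 2.38). The list summed to 15.7% in smooth muscle and 5.05% in heart, and to between 0.657% in brain and 26.8% in stomach among the other libraries. On the smaller totals its share in smooth muscle was 22.03%, still below stomach. All 4 names kept a positive log2 ratio under every scaling. miR-145a-5p made up 31.7% (31.6 to 31.9) of the reads of miR-145a-5p and miR-143-3p in smooth muscle, 24.2% (23.9 to 24.4) in heart and 34.05% (33.9 to 34.2) in stomach, so the pair, from a common transcript, did not keep a fixed ratio between the libraries.

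The epithelial trio sits at 2 places of the genome. Mir194-1 and Mir215 lie 195 bases apart on chromosome 1 (185313319 to 185313385 and 185313581 to 185313692, plus strand), within the antisense transcript 2010103J01Rik and opposite an intron of Iars2. Mir194-2 and Mir192 lie 115 bases apart on chromosome 19 (6264643 to 6264728 and 6264844 to 6264932, plus strand), between annotated genes. miR-194-5p is the same from both places, but the other names tell them apart. The pairs below are shown with the differing bases in capitals, because the results on gene copies rest on them.
miR-194-1-3p: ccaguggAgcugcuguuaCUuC
miR-194-2-3p: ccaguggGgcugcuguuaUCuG
miR-215-5p: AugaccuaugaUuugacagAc
miR-192-5p: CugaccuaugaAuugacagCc
miR-194-1-3p and miR-194-2-3p differ at 4 bases, and miR-192-5p and miR-215-5p at 3 bases outside the seed.

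The chromosome 1 copies dominated in smooth muscle. miR-194-1-3p had 2766 reads and miR-194-2-3p 589, so that the first made up 82.4% (81.1 to 83.7) of both. miR-215-5p made up 73.2% (73.0 to 73.4) of the reads of miR-215-5p and miR-192-5p. Both shares were the highest of all libraries that had 20 reads or more of the pair. In stomach they were 51.0% (42.8 to 59.1) and 35.8% (34.3 to 37.4). In liver miR-194-1-3p had 1 of 264 reads, and in kidney 0 of 98, which allows a share of up to 3.06%. Heart had 99 reads of miR-215-5p and 454 of miR-192-5p, a share of 17.9% (14.8 to 21.4), and only 2 and 6 reads of the miR-194 3p names. miR-215-5p was 2554-fold (2098 to 3142) higher in smooth muscle than in heart, and miR-192-5p 204-fold (186 to 224). These pairs were chosen after values of the data were known.

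**Figure D3:**
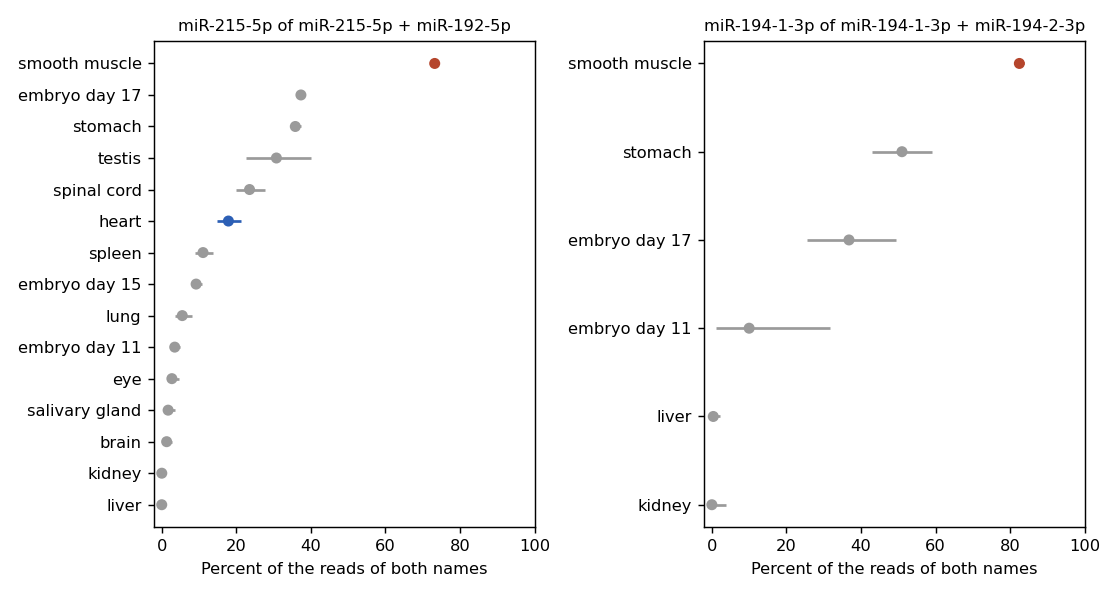
Share of the chromosome 1 copy in percent of the reads of both names, with exact 95% intervals, for miR-215-5p beside miR-192-5p (left) and miR-194-1-3p beside miR-194-2-3p (right), for libraries with 20 or more reads of the pair. Smooth muscle (red) is highest in both panels, at 73.2% and 82.4%, and heart (blue) has 17.9% on the left and too few reads on the right.

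The miR-200 family, known for keeping epithelial cells in their state by repressing Zeb1 and Zeb2, followed the same direction. miR-200b-3p had 27819 smooth muscle reads, or 1.61%, and 51 heart reads, 828-fold (629 to 1112) higher in smooth muscle. miR-200a-3p had 24942 and 61 reads, and miR-200c-3p 22179 and 67. miR-429-3p had 9418 and 14 reads, and miR-141-3p 6514 and 34. All 8 names of the list that were compared were called, with log2 ratios from 8.16 to 10.28, against 19.6% of all names. The passenger strands miR-141-5p and miR-200a-5p had 408 and 331 smooth muscle reads and no heart read, which makes them at least 206-fold and at least 167-fold higher by the floor of 3 reads in heart.

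Both miR-200 clusters were high. Mir200a, Mir200b and Mir429 lie within Ttll10 on chromosome 4 (156053905 to 156055750, minus strand), and Mir141 and Mir200c within the transcript Gm15884 on chromosome 6 (124717914 to 124718390, minus strand). The family summed to 5.34% (5.31 to 5.37) in smooth muscle and 0.00873% (0.00764 to 0.00994) in heart. Smooth muscle ranked 3rd of 15, and salivary gland was highest with 7.84%. Heart ranked 14th, above spinal cord alone.

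Other names of surface and glandular epithelium lay on the same side. miR-375-3p, known from endocrine cells and mucosal epithelium, had 10796 smooth muscle reads and 4 heart reads, 4096-fold (1599 to 15035) higher in smooth muscle, the largest ratio of all names compared. miR-802-5p, known from liver, pancreas and intestine, had 4537 and 4 reads, 1721-fold (672 to 6320) higher, and smooth muscle ranked first of the 15 libraries for it, above liver. miR-31-5p, known from keratinized and intestinal epithelium, had 14869 and 441 reads, 51.2-fold (46.5 to 56.4) higher, and smooth muscle again ranked first. miR-203-3p, a miRNA of stratified epithelium, had 8396 and 248 reads, but its companion on that list, miR-205-5p, had 156 and 12. miR-182-5p, miR-183-5p and miR-96-5p, from a cluster on chromosome 6 known from sensory cells, had 2797, 939 and 343 reads against 17, 10 and 1.

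Names of other cell types were counted too. The pancreatic miR-216b-5p had 111 smooth muscle reads and none in heart, miR-217-5p 85 and 2, and miR-216a-5p 71 and 1, and the list summed to 0.0162% of smooth muscle reads against at most 0.0477% elsewhere, in spleen. Of 9 neuronal names compared 4 were called higher in smooth muscle and none in heart, against 19.6% and 12.3% of all names. miR-138-5p had 420 and 42 reads, miR-137-3p 282 and 27, miR-124-3p 151 and 16, and miR-129-5p 80 and 12. Both miR-9 strands were higher in smooth muscle by less than 4-fold, and miR-128-3p, miR-153-3p and miR-218-5p had negative log2 ratios of -0.40, -0.89 and -0.29. The leukocyte list summed to 1.96% in smooth muscle and 0.548% in heart, and 2 of its 7 names compared were called higher in smooth muscle, a share near the 19.6% of all names. miR-142a-3p, found in most blood cells, had 15749 and 3763 reads, a ratio of 6.35 (6.13 to 6.58), whereas miR-155-5p had 294 and 913, lower in smooth muscle. The hepatocyte miR-122-5p was scarce in both, with 118 and 221 reads.

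Names of the Hox clusters, which record position along the body axis, were called higher in smooth muscle for all 5 names compared, against 19.6% of all names. miR-196b-5p, too low to be compared, had 7 smooth muscle and 12 heart reads. miR-10a-5p, from the HoxB cluster on chromosome 11, had 8963 smooth muscle and 1675 heart reads, a ratio of 8.12 (7.71 to 8.56). miR-10b-5p, from HoxD, had 2206 and 734, a ratio of 4.56 (4.19 to 4.96). miR-196a-5p had 130 reads and 1 read, and miR-615-3p, from HoxC, had 148 and none, at least 74.9-fold higher. The log2 ratio of miR-10b-5p was 1.79 under TMM and 1.59 under median-of-ratios scaling, both under 4-fold.

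miR-21a-5p, induced in many tissues by injury and growth signals, ranked 5th in the smooth muscle library, with 84214 reads or 4.87%, against 18880 or 0.720% in heart, a ratio of 6.77 (6.66 to 6.88). Heart ranked 14th of 15 for it. The miR-17-92 cluster, known for promoting proliferation, summed to 1.54% in smooth muscle and 0.447% in heart. With all names 4 of its 8 names compared were called higher in smooth muscle, against 19.6% of all names, and with the smaller totals 7 were, against 24%. Its median log2 ratio was 1.92 with all names, 1.52 under TMM and 1.32 under median-of-ratios scaling. The call of miR-17-5p was lost under both of these scalings, with log2 ratios of 1.65 and 1.44. miR-18a-5p had 1512 and 326 reads, miR-17-5p 4246 and 1560, and miR-19b-3p 7534 and 4036, the last with a ratio of 2.83 that stayed under 4-fold on both totals. miR-130b-3p had 852 and 64 reads, a ratio of 20.2 (15.7 to 26.5), and both strands of miR-423, miR-425-5p and miR-33-5p were called too. The log2 ratios of miR-423-3p and miR-423-5p were 2.39 and 2.14. Both calls were lost under TMM, which shifted every log2 ratio by -0.40.

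**Figure D4:**
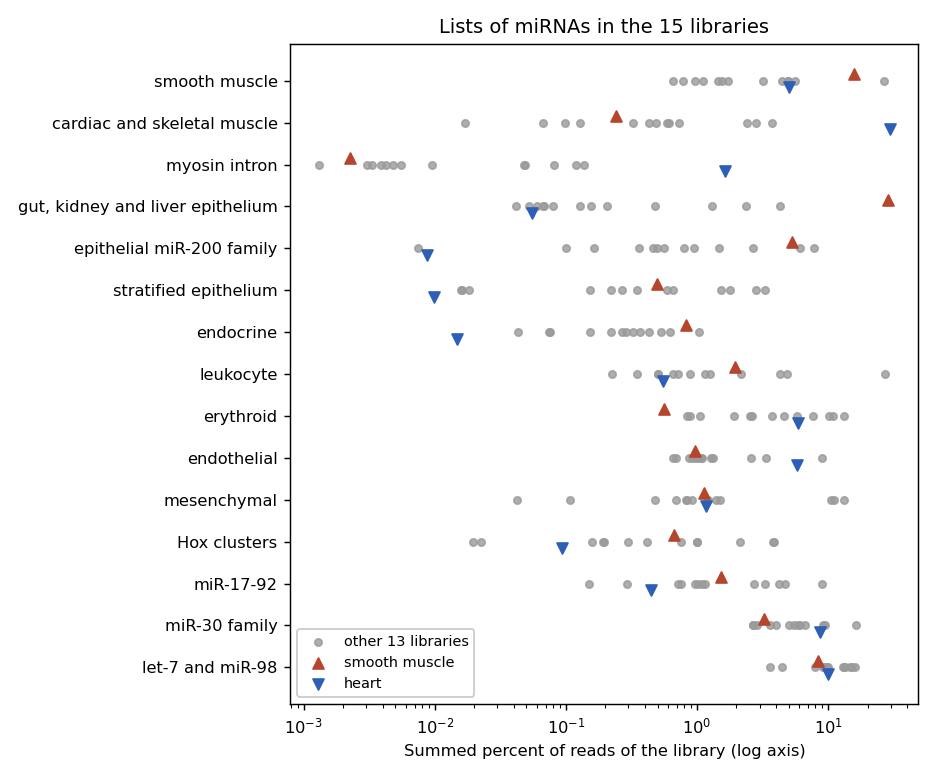
Summed share of reads of 15 of the lists in each library, in percent on a log axis; grey points are the other 13 libraries, the red triangle is smooth muscle and the blue triangle is heart. Heart stands apart from all others for both heart muscle lists and smooth muscle for the gut, kidney and liver epithelium list. Smooth muscle and heart lie close to each other for the let-7 and mesenchymal lists.

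The erythroid and endothelial names lay on the heart side, unlike the leukocyte miR-142a. miR-126a-3p, from a hairpin within the endothelial gene Egfl7 on chromosome 2 (26591357 to 26591429, plus strand), had 119812 heart reads, or 4.57%, and 13745 smooth muscle reads, or 0.795%, 5.74-fold (5.64 to 5.85) higher in heart. Its other strand miR-126a-5p was 7.39-fold (7.11 to 7.69) higher. Heart ranked second of 15 for the endothelial list, behind lung. The erythroid miR-451a, which is cut by Argonaute 2 in place of Dicer, had 90282 heart reads, or 3.44%, and 7753 smooth muscle reads, or 0.449%, 7.67-fold (7.496 to 7.85) higher in heart. miR-144-3p, 99 bases from it on chromosome 11, had 4234 and 324 reads, 8.61-fold (7.69 to 9.67) higher in heart.

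Smooth muscle was the lowest of the 15 libraries in the erythroid list, at 0.562%, and heart ranked 5th, at 5.88%. miR-486, known from red cells and from striated muscle, differed more than miR-451a. miR-486a-5p had 29137 heart reads and 781 smooth muscle reads, 24.6-fold (22.9 to 26.4) higher in heart. For it heart ranked first of the 15 libraries, above lung, whereas for miR-451a it ranked 7th. The counts of miR-486a-5p and miR-486b-5p lay within 1% of each other in both libraries, so reads may have been shared between the names and each value is uncertain. How much of either miRNA came from blood left in the tissue was not tested.

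Of 6 names of miR-378 and miR-22 compared, 3 were called higher in heart, against 12.3% of all names, and 1 was on the smaller totals. miR-378a-3p, from an intron of the PGC-1 beta gene and known from oxidative tissue, had 93712 heart reads, or 3.57%, and 14939 smooth muscle reads, or 0.865%, and heart ranked first of 15 for it. Its ratio of 4.13 (4.06 to 4.21) fell to 2.94 on the smaller totals, which ended the call. miR-378c had 26941 and 2511 reads, 7.07-fold higher in heart and 5.04-fold on the smaller totals. miR-22-3p, abundant in cardiac and skeletal muscle, had 55134 and 16564 reads, 2.19-fold (2.16 to 2.23) higher in heart.

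The miR-30 family was lower in smooth muscle in all 10 names compared, and the sign of the list median held under every scaling, from -2.17 to -0.97. Its summed share was 8.65% in heart and 3.24% in smooth muscle. miR-30c-5p had 77587 heart and 20809 smooth muscle reads, and miR-30a-5p 34804 and 6186. For miR-30a-5p and miR-30e-5p smooth muscle was the lowest of the 15 libraries. With all names 2 of the 10, the 3p strands miR-30a-3p and miR-30c-1-3p, passed 4-fold, against 12.3% of all names. Neither did on the smaller totals, against 8.96%. Under TMM and median-of-ratios scaling more of the family passed 4-fold, such as miR-30a-5p with log2 ratios of -2.29 and -2.49.

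Individual members of the miR-99, miR-100 and miR-125 families stood apart from their close relatives. miR-99a-5p had 26306 heart reads, or 1.003%, and 1567 smooth muscle reads, or 0.0907%, 11.1-fold (10.5 to 11.6) higher in heart. miR-100-5p, which differs from it at the base in capitals, had 2574 and 893 reads, 1.90-fold (1.76 to 2.05) higher in heart.
miR-99a-5p: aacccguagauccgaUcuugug
miR-100-5p: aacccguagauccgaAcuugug
Heart ranked first and smooth muscle last of the 15 libraries for miR-99a-5p. The miR-99a hairpin lies in an intron of Mir99ahg on chromosome 16 (77598936 to 77599000, plus strand), and that host transcript is known to carry let-7c-1 and miR-125b-2 as well.

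The other strands of those hairpins showed ratios of like size. miR-125b-2-3p had 488 heart reads and 24 smooth muscle reads, 13.4-fold (8.90 to 21.1) higher in heart, and let-7c-1-3p had 34 and 2 reads, a ratio of 11.2 with a counting interval of 2.87 to 96.2. miR-99a-3p had 43 and 2 reads, a ratio of 14.2 with an interval of 3.69 to 121. The 3p strand of the other copy, miR-125b-1-3p, had 51 heart and 21 smooth muscle reads, 1.60-fold higher in heart. miR-125b-1-3p thus made up 9.46% (7.13 to 12.3) of the 3p reads of both copies in heart and 46.7% (31.7 to 62.1) in smooth muscle. The mature miR-125b-5p, common to both copies, differed by 1.97-fold and let-7c-5p, common to its own copies, by 1.26-fold. These strands were set side by side after their values were seen.

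Further names called in heart lay outside the lists. Of 40 names 11 did, and of the 64 in smooth muscle 23 did. miR-149-5p, from an intron of the glypican gene Gpc1 on chromosome 1 (92850378 to 92850443, plus strand), had 3643 heart reads and 148 smooth muscle reads, 16.2-fold (13.8 to 19.2) higher in heart, and heart ranked first of 15. miR-335-5p, from the imprinted gene Mest, had 1459 and 101 reads. miR-503-5p and miR-542-3p, from a cluster on the X chromosome known from fetal growth and muscle differentiation, had 432 and 133 heart reads against 39 and 8. miR-322-5p of the same cluster, counted in the list of miR-15, miR-16, miR-195 and miR-497, had 4099 and 479. miR-201-5p had 172 and 2 reads, a ratio of 56.7 with an interval of 15.5 to 472.

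Many abundant miRNAs of general expression hardly differed with all names in the totals. miR-26a-5p took 3.01% (2.99 to 3.04) of smooth muscle reads and 3.05% (3.02 to 3.07) of heart reads, and it was among the 10 most abundant names of both libraries. miR-16-5p took 0.972% (0.957 to 0.987) and 0.960% (0.949 to 0.972), with overlapping intervals, and miR-29a-3p 1.72% and 1.802%. On the smaller totals the log2 ratios of miR-26a-5p, miR-16-5p and miR-29a-3p were 0.47, 0.51 and 0.42. Under median-of-ratios scaling they were -0.62, -0.58 and -0.67. None of 18 let-7 and miR-98 names compared was called, and their sum was 8.32% in smooth muscle and 9.95% in heart. The median log2 ratio of the let-7 list was -0.33 with all names, 0.15 on the smaller totals and -0.94 under median-of-ratios scaling, so its direction is not fixed by these data. The medians of the mesenchymal, miR-15 and miR-16, miR-29 and miR-21, miR-181, miR-221 and miR-222 and Dlk1-Dio3 lists also changed sign between scalings, and none of the 16 Dlk1-Dio3 names was called with all names.

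Reads were also summed by seed. Of 326 names compared, 286 matched a mature sequence of the RefSeq table, and they held 79.5% of smooth muscle and 54.4% of heart reads. miR-1a-3p, miR-133a-3p, miR-143-3p and miR-145a-5p are not among them. The seed of miR-192 and miR-215 (UGACCUA) took 13.2% of smooth muscle reads and 0.0211% of heart reads, and that of miR-194 (GUAACAG) 14.8% and 0.0337%. The seed of miR-200b, miR-200c and miR-429 (AAUACUG) took 3.44% and 0.00503%. The seed of miR-21a (AGCUUAU) took 4.87% and 0.720%, and that of miR-126a (CGUACCG) 0.795% and 4.57%. The seed of miR-30a, miR-30c and miR-30e (GUAAACA) took 2.001% and 5.67%, with miR-30b-5p and miR-30d-5p not among the names summed. These 6 seeds had the largest differences in summed share among the seeds summed. Of 224 seeds with a mean of at least 20 CPM, 46 were at least 4-fold higher in smooth muscle and 27 in heart.

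As whole profiles the libraries were not close. They had 40.5% of reads in common, taking the smaller share of each name, and heart ranked 8th of 14 libraries in likeness to smooth muscle. Smooth muscle had 64.3% in common with stomach, its nearest library, and heart 59.0% with lung. On the smaller totals smooth muscle and heart had 48.1% in common, and smooth muscle and stomach 78.6%. The 10 most abundant names held 56.4% of smooth muscle and 54.3% of heart reads, with 3 names in both sets, which were miR-143-3p, miR-26a-5p and let-7c-5p.

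Arm usage differed far less than abundance. The title of the series concerns a change of the dominant arm, and arm usage is given as the 5p share, the percent of reads of a hairpin that fell on its 5p name rather than its 3p name. Of 615 hairpins with names for both arms, 193 had at least 20 reads in both libraries. The dominant arm differed for none of them, 0% of 193, taking an exact 99% interval wholly on one side of 50% in smooth muscle and on the other in heart. With 95% intervals the count was also 0. The 5p arm was ahead in both libraries in 98 cases and the 3p arm in 90. The other 5 lay on opposite sides of 50% or at it, and in none of them did the intervals of both libraries exclude 50%. The median difference was 1.11 points in size, and 149 hairpins differed by less than 5 points.

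**Figure D5:**
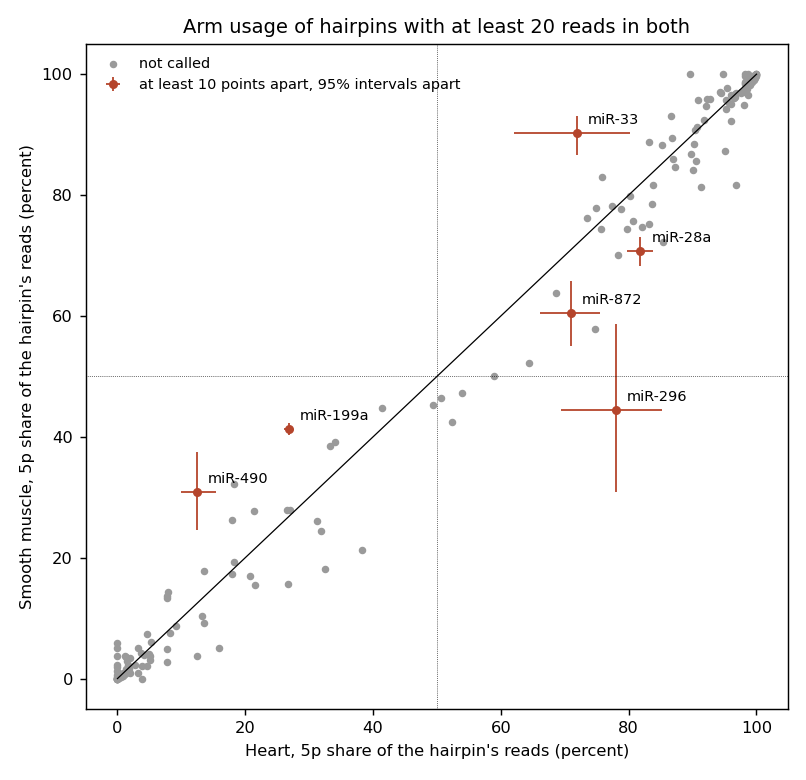
The 5p share of each of 193 hairpins in heart (horizontal) and smooth muscle (vertical), in percent; the line is equality, dotted lines mark 50%, and red points with exact 95% intervals are the hairpins called. Nearly all hairpins lie along the line, and mir-296 lies farthest from it.

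A hairpin was called when its shares lay at least 10 points apart and their 95% intervals did not overlap. There were 3 hairpins with a higher 5p share in smooth muscle (1.55% of 193) and 3 with a higher one in heart (1.55%), although 16 differed by at least 10 points in size and 31 had intervals that did not overlap. The sequences of both arms are given for 3 of the 6, those with the largest differences, with the seed in capitals.
miR-296-5p: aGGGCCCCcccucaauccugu
miR-296-3p: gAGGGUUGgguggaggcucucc
miR-33-5p: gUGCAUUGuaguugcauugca
miR-33-3p: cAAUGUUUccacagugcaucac
miR-490-5p: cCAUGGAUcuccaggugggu
miR-490-3p: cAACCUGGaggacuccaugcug

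mir-296, of the imprinted Gnas region on chromosome 2 (174267047 to 174267125, minus strand), had a 5p share of 44.4% (30.9 to 58.6; 24 of 54 reads) in smooth muscle and 78.1% (69.4 to 85.3; 89 of 114 reads) in heart. The arms differed in opposite directions, with 24 and 89 reads of miR-296-5p but 30 and 25 of miR-296-3p. The smooth muscle interval includes 50%. mir-296 ranged from 27.5% in the day 11 embryo to 79.7% in brain among the other libraries. It drops out when 100 reads are asked of each library, which leaves 5 hairpins called.

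mir-33, in an intron of Srebf2, a regulator of cholesterol genes, on chromosome 15 (82198122 to 82198190, plus strand), had 90.2% (86.6 to 93.1; 314 of 348 reads) in smooth muscle and 71.8% (62.1 to 80.3; 74 of 103) in heart. Heart was near the lowest of the other libraries, spinal cord at 69.3%. miR-33-5p was called higher in smooth muscle, with a ratio of 6.44, while miR-33-3p had 34 and 29 reads. mir-490, in an intron of the muscarinic receptor gene Chrm2, which is active in heart and smooth muscle, on chromosome 6 (36421742 to 36421825, plus strand), had 30.8% (24.6 to 37.5; 65 of 211) in smooth muscle and 12.5% (9.91 to 15.4; 74 of 594) in heart. The heart share was below that of the 8 other libraries with at least 20 reads, which began at 27.0% in stomach. By share of all reads its arms had log2 ratios of opposite sign. The log2 ratio of smooth muscle over heart was -1.23 for miR-490-3p (146 and 520 reads) and 0.42 for miR-490-5p (65 and 74 reads). Median-of-ratios scaling shifted every log2 ratio by -0.60, so the sign for miR-490-5p depended on the scaling.

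The remaining 3 calls were smaller. mir-199a had 41.3% (40.4 to 42.2) in smooth muscle and 26.8% (26.1 to 27.5) in heart, but its 3p count lay within 1% of that of miR-199b-3p, so the share is uncertain. mir-28a had 70.7% (68.3 to 73.0) in smooth muscle and 81.8% (79.7 to 83.8) in heart, and mir-872 60.5% (55.0 to 65.7) and 70.9% (66.1 to 75.4). On the scale of log2 odds, where 1 unit was asked, 11 hairpins were called, among them mir-133a at 0.981% in smooth muscle and 2.01% in heart. Hairpins of abundant names described above kept their arms. mir-143 had 0.932% and 0.805% of its reads on the 5p arm, mir-145a 96.9% and 94.4%, mir-30a 92.4% and 91.8%, and mir-126a 16.9% and 20.7%. mir-324 had 45.3% (40.9 to 49.8) and 49.3% (43.5 to 55.2), with overlapping intervals. At the limit of 20 reads, mir-377 and mir-466b were the last hairpins taken in, both with 20 reads in the shallower library, and mir-542 with 19 the first left out.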

How the data were processed

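The authors deposited raw read counts per mature miRNA name, 1 table per library. Per the submitters' processing notes, the tools were BWA, bedtools, cutadapt and bcl2fastq 1.8.4, and the genome build was mm10. Which step each tool served, the miRNA annotation and the treatment of reads that map to several places were not stated, and the protocols' spike-in RNAs were not used here. Names absent from a table were taken as 0.

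Counts were turned into shares and CPM by the library total, once with all names and once without miR-192, miR-194 and miR-215. With 1 library per tissue no test was made. Names had a mean of at least 20 CPM, and a call needed a 4-fold difference with 0.5 reads added. TMM factors came from edgeR 4.0.16, and the other steps from Python 3.11.15 with scipy 1.17.1. Hairpin positions (GRCm38.p6) and sequences come from RefSeq, and the genes at the hairpins from GENCODE vM21.

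Named were the 4 markers, the 10 most abundant names of each library, the 10 largest ratios in each direction at a mean of 100 CPM or more, members of 27 lists with at least 1000 CPM (all members with a read in lists of fewer than 8 miRNAs), the 10 hairpins with the largest arm difference at 100 reads, and 6 seeds. Names outside this rule (other called names, gene copies and passenger strands) were chosen after their values were seen. The members and lists were chosen with earlier results of these data known.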

Additional observations from a re-analysis of the deposited data

How the results depend on the processing

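No paired analysis was possible because each tissue has 1 library. The count of 104 names at least 4-fold apart (all names) moved to 376 with no filter on low values, 67 at a mean of at least 100 CPM, 178 at 2-fold and 68 at 8-fold. The count of 114 on the smaller totals moved to 398, 69, 209 and 70 under the same settings. TMM, median-of-ratios scaling, 3 reads added and other names left out kept these counts within 1.5 times. The 6 hairpins called by arm became 1 at 20 points and 11 by log2 odds. The dominant arm differed in 0 hairpins under every setting run. No named miRNA at least 4-fold apart changed its direction under any alternative run, but 22 of 159 named miRNAs changed sign without miR-192, miR-194 and miR-215, 27 of 149 without both epithelial lists, 2 of 166 with 3 reads added, 9 of 166 with TMM and 16 of 166 with median-of-ratios scaling, all of them under 4-fold. Names with few reads have wide counting intervals.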
